A study of Mus musculus with 22 samples.

Results

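Replication-dependent histone genes encode the bulk of the histones that package newly copied DNA, and 39 of them could be followed across mouse blastocysts grown in culture or in vivo. The members were all genes on the array whose annotated symbol places them in the H2A, H2B, H3 or H4 clusters or among the linker histones H1f1 to H1f5. They were then selected on the measured detection values: a member needed a probe with a detection p-value under 0.05 on at least 3 of the 22 arrays, where the detection p-value compares a probe's brightness with the array's negative controls. Of 50 such genes with a probe (55 probes), 39 passed and 11 did not, and the 39 stand among 9345 genes tested. The study asked how culture media used in assisted reproduction change the mouse embryo. It measured total RNA of E3.5 blastocysts on Illumina bead arrays, from 150 ng of RNA amplified by in vitro transcription for 12 h.

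The blastocysts came from 2 strain backgrounds, labelled B6 and CD1. Each was grown in KSOM (potassium simplex optimised medium, designed for mouse embryos), in HTF (a medium modelled on human tubal fluid) or in ISM1 (a medium made for human assisted reproduction), or developed in vivo. Each of the 8 groups had 3 arrays, except CD1 in KSOM, which had 1. The labels call the arrays of a group biological replicates. They do not say how many embryos were pooled, how long culture lasted or whether replicates came from separate matings, so p-values measure the spread between these arrays. No agent or allele other than strain and medium is named.

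Replication-dependent histone genes lie in clusters, are transcribed mainly in S phase, and give short mRNAs without introns. Their mRNAs end in a conserved stem-loop bound by the stem-loop binding protein instead of a poly(A) tail, and they are degraded quickly when DNA synthesis stops. The kits named in the labels prime from poly(A) tails, so histone mRNAs with such a tail are the ones that priming copies well. What share of each signal came from tailed mRNA was not tested. The rapid cleavage divisions of the early embryo draw on a maternal store of histones and then on the embryo's own histone mRNA.

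Core histones were well represented among the genes that passed detection, and linker histones were not. The H2A type had 13 of its 14 genes with a probe, H2B 10 of 12, H3 9 of 9, H4 6 of 10 and the linker type 1 of 5 (H1f2). By chromosome, 32 members lay on chromosome 13 and 7 on chromosome 3. Of the 39, 9 were detected on all 22 arrays (H2ac10, H2ac20, H2ac22, H2ac24, H2bc4, H3c4, H3c6, H3c13 and H3c14), and 9 on fewer than 10. The 11 genes left out were H1f1, H1f3, H1f4, H1f5, H2ac1, H2bc1, H2bc3, H4c2, H4c3, H4c12 and H4c18. Just inside the threshold, with 3 detected arrays, stood H2ac6 (highest level 8.25 on the log2 intensity scale), H2bc9 (6.55) and H2bc15 (5.80). Just outside it, with 2, stood H1f5 (6.52), H1f3 (5.72) and H4c12 (5.67). H2bc8 passed through 3 CD1 HTF and 2 CD1 in vivo arrays alone. H2ac6 was also detected on CD1 arrays alone, and H2bc15 and H4c14 on B6 arrays alone. The differences of these genes between strains are partly set by how they were chosen. In each comparison 2 to 7 members had an undetected group on both sides in at least 1 strain or growth condition compared. There the sign of the difference comes from background signal. An average over strains can still take its sign from a strain with detected arrays, as for H2bc8 in ISM1 against in vivo (0.16 in B6, -1.22 in CD1).

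The stretch before the annotated start was read for 35 of the 39 members, from the RefSeq promoter table of build GRCm38.p6 (H2bc4, H3c1, H3c7 and H4c14 were not matched). Promoters of 5 members are printed because their values recur in the comparisons and because they differ in their elements. Each line gives the 120 bases before the start, 5′ to 3′ on the plus strand, with capitals for the CCAAT box, the TATA box (TATAAA) and the octamer (ATTTGCAT) on either strand.
H2ac18, chr3:96245377-96245496: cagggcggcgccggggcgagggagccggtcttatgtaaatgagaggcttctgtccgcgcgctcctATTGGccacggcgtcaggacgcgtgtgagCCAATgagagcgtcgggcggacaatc
H2bc8, chr13:23571280-23571399: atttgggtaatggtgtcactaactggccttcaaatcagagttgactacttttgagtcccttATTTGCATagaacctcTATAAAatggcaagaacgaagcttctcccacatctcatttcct
H3c4, chr13:23575643-23575762: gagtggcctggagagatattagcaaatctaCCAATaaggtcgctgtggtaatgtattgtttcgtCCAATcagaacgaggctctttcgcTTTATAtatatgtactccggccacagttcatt
H4c11, chr13:21734914-21735033: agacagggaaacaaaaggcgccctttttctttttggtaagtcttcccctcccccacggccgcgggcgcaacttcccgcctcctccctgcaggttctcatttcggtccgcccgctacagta
H1f2, chr13:23738687-23738806: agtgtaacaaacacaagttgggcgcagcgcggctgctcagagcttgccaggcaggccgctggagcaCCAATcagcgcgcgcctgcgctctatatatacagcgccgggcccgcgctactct
Over 250 bases before the start, CCAAT (the box bound by NF-Y) was found in 30 of the 35 members, against 33.8% of 32851 promoters of that length. It was present in 13 of 13 H2A, 9 of 9 H2B, 6 of 7 H3 and 1 of 5 H4 promoters and in that of H1f2. ATTTGCAT, the octamer bound by POU factors such as OCT1, was found in 9 of 35 (5 H2A and 4 H2B, no H3, H4 or H1 promoter), against 1.6% of all promoters. TATAAA was found in 15 of 35, against 12.4%. These are matches of letters, and no match says only that the letters are not in the window.

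The arrays as a whole set some limits on what follows. Median raw intensity ran from 90.6 to 154 units, the 3 CD1 in vivo arrays (90.6 to 111.5) among the dimmer ones. Between 17 and 34 members were detected per array, the fewest on CD1 ISM1 replicate 3, which also had the lowest mean level over the members (6.24, against at most 8.21 elsewhere). Of the markers of blastocyst lineages, 6 of 6 trophectoderm, 4 of 6 epiblast and 1 of 5 primitive endoderm genes were detected on all 22 arrays. All 5 primitive endoderm genes were tested. Of the other cell types, oocyte genes (6 of 8 tested) reached a summed intensity of 4992 on CD1 in vivo replicate 1, against 254.9 to 1763 on the other arrays. The same array held the highest sum of the reproductive tract genes (437.6, 3 of 5 tested), and 0 of 6 cumulus genes passed the filter. Of 6 blood genes listed only 1 was tested, haemoglobin gene Hba-a1, detected on 3 arrays. Hba-a1 had an intensity of 37.15 to 150.9 in B6 in vivo, highest on replicate 2, and of 22.49 to 29.78 in B6 culture. In CD1 it had 22.21 to 32.68 in vivo and 25.23 to 51.5 in ISM1. It differed in B6 by -1.41 in HTF, -1.29 in ISM1 and -1.40 in KSOM, each at an unadjusted p under 0.05 and none called, and its part in the B6 results was not tested. In whole embryos, fewer cells of a type and less RNA per cell cannot be told apart.

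The histone genes varied more than the tested genes as a whole. The range over the 22 arrays had a median of 3.75 log2 units among the members and 2.24 over all tested genes, and the median SD within groups was 0.69 against 0.54. The widest range of group means belonged to H2ac11 among the H2A genes, H2bc4 among the H2B genes, H3c1 among the H3 genes and H4c11 among the H4 genes. H3c13 and H3c14, both on chromosome 3, had the opposite pattern. H3c13 stayed between 11.79 and 12.89 and H3c14 between 11.12 and 12.44 over all arrays, and neither differed from in vivo by more than 0.42 in any medium and strain with replicates. In CD1 ISM1 their arrays nevertheless lay below in vivo without overlap (-0.38 and -0.42).

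**Figure D1:**
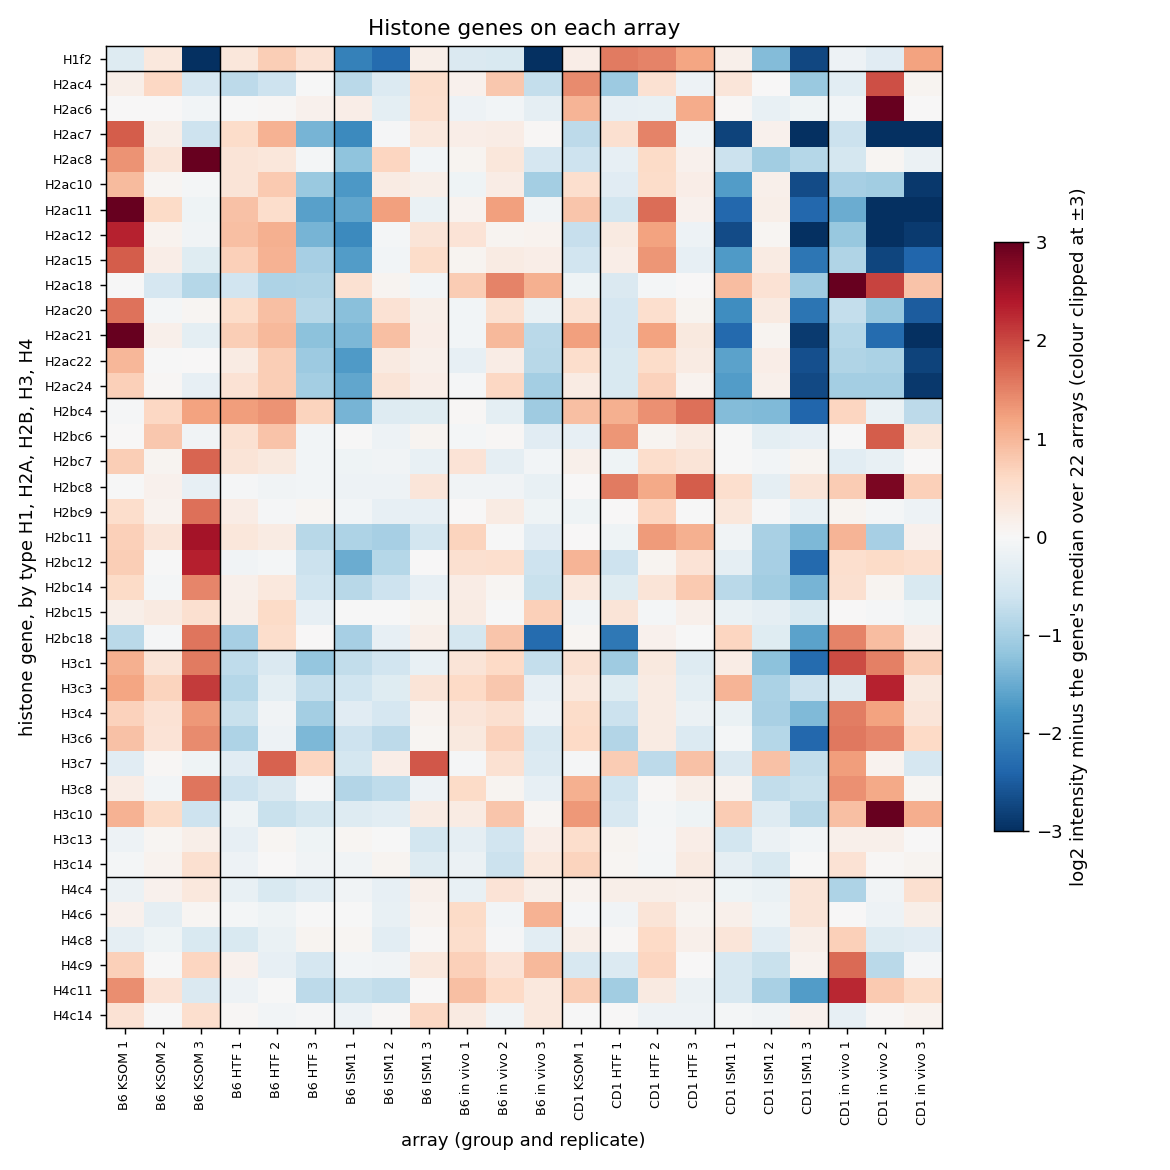
Log2 intensity of the 39 histone genes (rows, by type) on each of the 22 arrays (columns, by group), minus each gene's median over the arrays, with the colour clipped at 3 in either direction. Blocks of H2A genes are high or low together on single arrays, such as B6 KSOM replicate 1 and CD1 ISM1 replicate 3, while H3c13 and H3c14 hardly change colour.

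HTF against in vivo growth, averaged over the strains, gave 1 called histone gene. H2ac18, an H2A gene on chromosome 3, fell in HTF. In B6 its log2 intensity was 6.34, 7.07 and 6.65 in vivo, and 5.01, 4.67 and 4.68 in HTF, where it was detected on none of the 3 arrays. In CD1 it was 8.75, 7.62 and 6.44 in vivo and 5.16, 5.53 and 5.61 in HTF. Every HTF array lay below every in vivo array of its strain. The mean difference was -2.04 (SE 0.35, limma adjusted p = 0.0226), which, as the B6 HTF arrays give only a bound, is at least 3.39-fold lower. The difference was -1.90 (SE 0.50) in B6 and -2.17 (SE 0.50) in CD1, neither past the threshold alone (adjusted p = 0.771 and 0.286).

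H2ac18 was also low in the other media, without passing the test there. It measured 5.57, 5.08 and 4.73 in B6 KSOM and 6.04, 5.67 and 5.52 in B6 ISM1, all below the 3 B6 in vivo arrays. The difference was -1.56 (SE 0.50, adjusted p = 0.618) for KSOM and -0.95 for ISM1. In CD1 the ISM1 arrays were spread from 4.52 through 6.02 to 6.51 and overlapped the lowest in vivo array, and the single KSOM array stood at 5.45. The call for HTF rested on few arrays. It was made in 25 of 34 settings, with adjusted p between 0.00334 and 0.0796, and was lost without any 1 of the 6 HTF arrays or B6 in vivo replicate 2. Without CD1 in vivo replicate 1, the array with the oocyte signal, the difference was -1.75 (adjusted p = 0.0304).

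**Figure D2:**
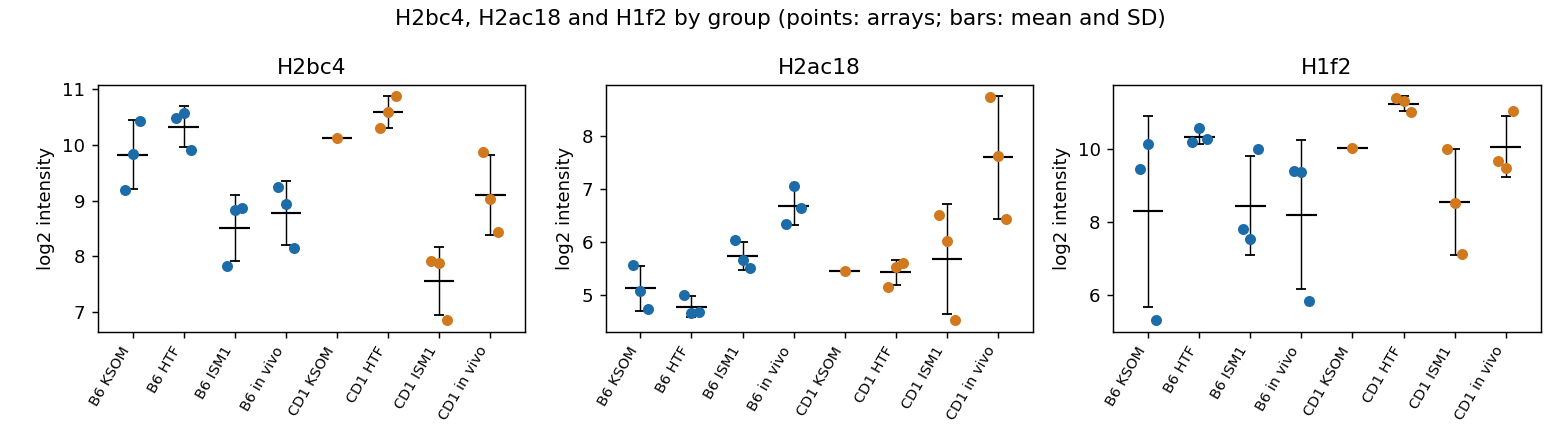
Log2 intensity of H2bc4, H2ac18 and H1f2 on every array of the 8 groups (points, blue B6 and orange CD1), with bars for the mean and SD, each panel on its own scale. H2bc4 is highest in HTF and lowest in CD1 ISM1, H2ac18 is highest in vivo, and H1f2 is tight in HTF (SD 0.20 in B6 and 0.20 in CD1) but spread over several units in B6 KSOM and B6 in vivo.

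The other members were split in HTF, and no difference between histone types was tested. Of the 39, 23 were higher than in vivo and 16 lower, with a median difference of 0.04 (0.01 over all tested genes). The call on H2ac18 was 1 of 39, against 0.203% of all tested genes. At an unadjusted p under 0.05 stood 13 members (5 higher, 8 lower), against 8.25% of all genes. The arrays did not overlap in either strain, in the same direction, for 4 members (H2bc4 higher, and H2ac18, H3c10 and H4c11 lower), against 1.84%. By type, the median difference was 0.97 for the 13 H2A genes, 0.16 for the 10 H2B genes, -0.94 for the 9 H3 genes and -0.18 for the 6 H4 genes. Of these 8 lower genes 6 were H3 genes: H3c1 (-1.33), H3c3, H3c4 (-1.03), H3c6 (-1.27), H3c8 and H3c10 (-1.37). H4c11, which encodes histone H4, stood at -1.22 (SE 0.36, adjusted p = 0.244).

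H2bc4, an H2B gene, was high in HTF. H2bc4 and H1f2 are known to give polyadenylated mRNA as well in differentiated cells. In B6 H2bc4 measured 10.49, 10.58 and 9.90 in HTF and 9.25, 8.93 and 8.14 in vivo. In CD1 it measured 10.30, 10.59 and 10.87 in HTF and 9.86, 9.03 and 8.43 in vivo. The groups did not overlap in either strain. The mean difference was 1.51 (SE 0.31) with an adjusted p of 0.0664, just short of the threshold, and it passed in 7 of 34 settings (adjusted p from 0.0099 to 0.195).

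Set directly against HTF, ISM1 gave the lowest adjusted p of any histone gene. H2bc4 fell in ISM1, to 7.83, 8.84 and 8.87 in B6 and to 7.92, 7.89 and 6.85 in CD1. Each of these 6 values was below every HTF array. The difference was -2.42 (SE 0.31, limma adjusted p = 0.00221), a level 5.36-fold lower. It passed in 34 of 34 settings, with adjusted p between 3.45e-05 and 0.0136. KSOM arrays, at 9.19, 9.84 and 10.43 in B6 and 10.12 in CD1, lay above every ISM1 array. A second H2bc4 probe was detected on only 2 arrays, was left out by the filter, and differed in the same direction by -0.53. Against in vivo, ISM1 differed by -0.91 (SE 0.31) in the mean of the strains and by -1.55 in CD1, where the arrays did not overlap, and neither passed (adjusted p = 0.999 and 0.807).

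H1f2, a linker histone, followed the same order in HTF and ISM1 with a wider spread. In HTF it measured 10.19, 10.57 and 10.28 in B6 and 11.40, 11.33 and 11.02 in CD1. In ISM1 it measured 7.81, 7.53 and 10.01 in B6 and 10.002, 8.53 and 7.12 in CD1, all below the HTF arrays of the strain. The difference was -2.30 (SE 0.78, adjusted p = 0.620). In vivo it ran from 5.85 to 9.40 in B6 and from 9.49 to 11.04 in CD1, and in KSOM it measured 9.45, 10.15 and 5.30 in B6, so that 1 array of B6 in vivo and 1 of B6 KSOM stood more than 3 units below the others of its group. In all, 31 of 39 members were lower in ISM1 than in HTF (median -0.30, against -0.01 over all genes). One was called, against 0.0963% of all genes, 7 had an unadjusted p under 0.05 (all lower), against 5.41%, and 2 did not overlap (H2bc4 and H1f2), against 1.9%. The H3 genes had a median of -0.19 here and the H2A genes one of -0.95.

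In CD1 blastocysts alone, most H2A genes had higher values in HTF than in vivo and H3 genes lower ones. No member passed the adjusted test, and the types were not tested against each other. The H2A gene H2ac11 measured 7.09, 5.34 and 5.08 in vivo and 8.03, 10.24 and 8.69 in HTF. H2ac12 measured 7.20, 4.61 and 5.47 in vivo and 8.60, 9.53 and 8.18 in HTF. For both genes every HTF array stood above every in vivo array. The differences were 3.15 (SE 1.01, adjusted p = 0.440) for H2ac11, 3.02 (SE 0.92, adjusted p = 0.434) for H2ac12 and 2.96 (SE 0.91, adjusted p = 0.440) for H2ac7. In vivo, each of the 3 was detected on 1 CD1 array only. Over the 13 H2A genes the median was 1.76, with 10 higher, 9 of them at an unadjusted p under 0.05 and H2ac18 the lowest. These 9 varied together: with group means removed, each pair of them correlated over the arrays at 0.755 to 0.997. They are not 9 separate observations, and whether a probe reads more than 1 of them was not tested. Without CD1 in vivo replicate 1, the array with the oocyte signal, the H2ac11 difference was 3.77.

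The 9 H3 genes all had differences below 0 in CD1 HTF (median -0.99), of which H3c7, H3c13 and H3c14 were within 0.09 of 0. H3c10 measured 6.36, 8.58 and 6.55 in vivo and 4.99, 5.40 and 5.34 in HTF. H3c1 measured 8.97, 8.52 and 7.75 in vivo and 5.95, 7.29 and 6.63 in HTF. Neither pair of groups overlapped. The differences were -1.92 (SE 0.53, adjusted p = 0.374) and -1.79 (SE 0.55, adjusted p = 0.434). Without CD1 in vivo replicate 2, its high array, H3c10 differed by -1.21, and with median scaling H3c1 differed by -0.98. H4c11 differed by -1.51 (SE 0.50), while the median of the 6 H4 genes was 0.02. Over all 39 members, 21 were higher and 18 lower, with a median of 0.10 (0.03 over all genes), or -0.01 without CD1 HTF replicate 3. None was called, against 0.0107% of all genes. Unadjusted, 17 members (10 higher, 7 lower) had a p under 0.05, against 7.06%. Arrays did not overlap for 18 members (10 higher, 8 lower), against 10.4%. Both counts include the 9 H2A genes that varied together, so they are not counts of separate observations. With each array scaled to its median, the median of all genes in this comparison moved to 0.46 and the split of the members to 26 higher and 13 lower. Relative to all genes the members' median was then -0.07. The CD1 in vivo arrays were dimmer (90.6 to 111.5) than the CD1 HTF arrays (113.1 to 138.1). With brightness as a covariate the H2ac11 difference was 2.52 (adjusted p = 0.495, from 0.124 to 1.00 over its alternatives).

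**Figure D3:**
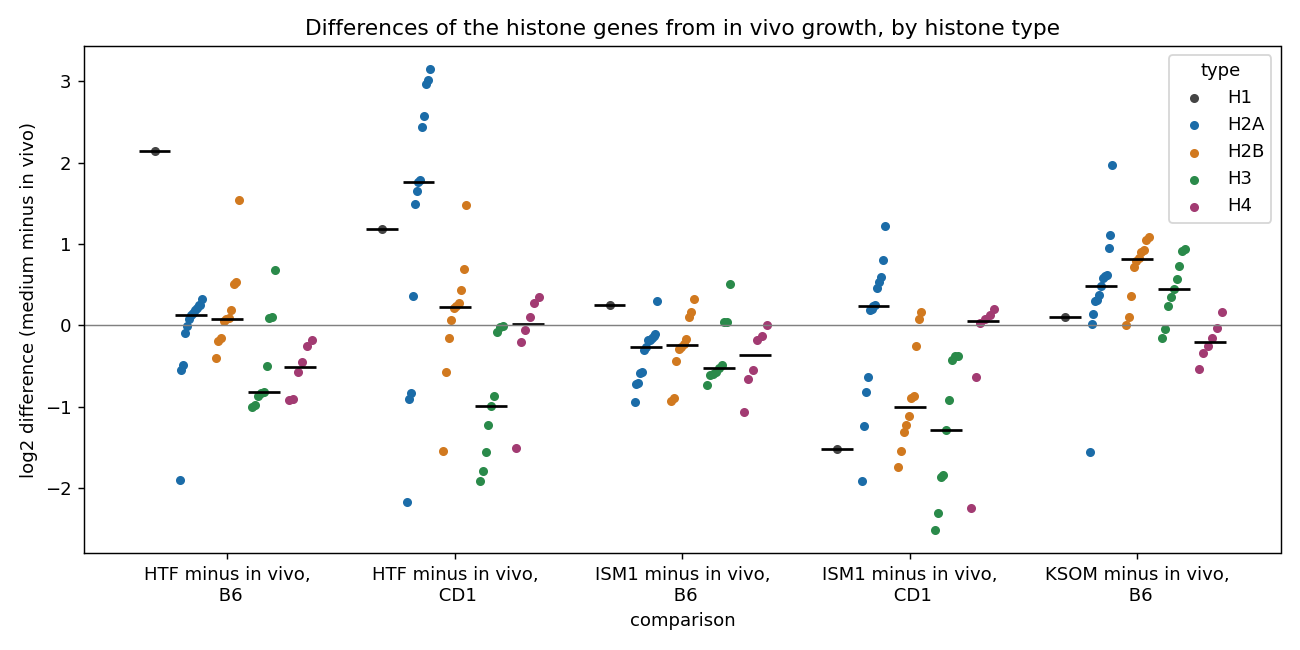
Log2 difference from in vivo growth (vertical axis) of each of the 39 histone genes (points, coloured by type) in the 5 medium and strain comparisons with replicates, with a bar at the median of each type. In CD1 the H2A genes spread up to 3.15 in HTF while every H3 gene is below 0 in both HTF and ISM1.

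In B6 blastocysts alone, the members were split between higher and lower in HTF. The split was 19 higher and 20 lower, with a median of -0.01. It was 12 to 27 (median -0.27) without B6 HTF replicate 2 and 24 to 15 (0.11) without replicate 3. No member was called (0.0107% of all genes were), and 4 had an unadjusted p under 0.05, against 3.39% (H2bc4 higher, and H2ac18, H3c4 and H4c6 lower). H4c6 was detected on 4 arrays, 2 of them in B6 in vivo and 0 in B6 HTF. Its place among the 4 is partly set by how it was chosen, and it was at least 1.27-fold lower. Arrays did not overlap for 10 members (4 higher, 6 lower), against 10.8%, but H2ac6 and H2bc8 among the higher ones were detected in neither group. Without overlap, H1f2 differed by 2.14 (SE 1.11), or 0.96 without B6 in vivo replicate 3, and H2bc4 by 1.55, and the H3 genes had a median of -0.82. H3c3 measured 6.09, 6.30 and 5.26 in vivo and 4.66, 5.21 and 4.78 in HTF, at least 1.46-fold lower with an adjusted p of 0.999. H2ac11, which differed most in CD1, measured 8.68, 9.81 and 8.45 in vivo and 9.45, 9.10 and 6.93 in HTF, and the groups overlapped.

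Whether the effect of HTF differed between the strains was tested directly. The difference of the differences was 3.63 for H2ac11 (SE 1.42), 3.06 for H2ac7, 3.02 for H2ac12 and 2.36 for H2ac15, the 4 members with an unadjusted p under 0.05. The share of all genes at that level was 1.99%. These 4 members are among the H2A genes that varied together. None passed the adjusted test (adjusted p = 1.00 for each), and of all genes 0% did. For ISM1, 4 members had an unadjusted p under 0.05, all with the more negative difference in CD1 (H2bc8, H3c1, H3c4 and H3c6), against 2.38%, and none passed, as 0% of all genes did. H2bc8 was detected on no B6 or ISM1 array and was kept through CD1 HTF and CD1 in vivo, so its place here is set by how it was chosen.

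ISM1 against in vivo growth gave no call. Averaged over strains, 30 of 39 members were lower, with a median of -0.40 (-0.26 without CD1 in vivo replicate 2), against 0.01 over all genes. Primitive endoderm markers had a median of -0.58 (4 of 5 lower), or -0.45 in B6 and -0.71 in CD1, and in B6 KSOM their median was 0.44. In HTF against in vivo it was -0.155, with 0.041 in B6 and -0.352 in CD1. The histone medians there had the opposite signs (0.04, -0.006 and 0.099). Trophectoderm and epiblast markers had medians of -0.021 and -0.062 in ISM1 averaged over strains. None of these markers was called, and their part in the histone values was not tested. The limma test called 0 members and 0% of all genes, while 11 members, all lower, had an unadjusted p under 0.05, against 3.29%. H4c11 was the only member whose arrays did not overlap in either strain, against 0.353%. H4c11 measured 7.99, 7.68 and 7.41 in B6 in vivo and 6.42, 6.35 and 7.10 in B6 ISM1. In CD1 it measured 9.34, 7.86 and 7.66 in vivo and 6.61, 6.12 and 5.40 in ISM1. The mean difference was -1.66 (SE 0.36, unadjusted p = 0.000205, adjusted p = 0.858). The 10 H2B genes had differences below 0 (median -0.52), as did 8 of 9 H3 genes (median -1.01). Of the H2B genes, 5 (H2bc6, H2bc7, H2bc8, H2bc9 and H2bc15) had an undetected group on both sides in at least 1 strain. With each array scaled to its median, the median of all genes moved to 0.12, and relative to it the members stood at -0.38.

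In CD1, 24 of 39 members were lower in ISM1, with a median of -0.64, against 0.00 over all genes. It was -0.36 without CD1 in vivo replicate 1, -0.35 without replicate 2 and -0.35 with brightness as a covariate. None was called, as with 0% of all genes, but 12 (all lower) had an unadjusted p under 0.05, against 5.04%, and 14 lay below in vivo without overlap, against 5.2%. Both counts include H2bc8, which was kept through CD1 HTF and CD1 in vivo arrays alone, so its place is partly set by how it was chosen. Among the 14, H2bc15 was detected in neither group, and H2ac8, H2bc6, H2bc8 and H2bc14 were detected on no CD1 ISM1 array. H3c1 measured 7.22, 5.77 and 4.69 in ISM1, H3c6 measured 8.32, 7.53 and 6.04, and H3c4 measured 8.36, 7.57 and 7.21. In vivo the lowest arrays were at 7.75, 8.98 and 8.92, so no array overlapped. The differences were -2.52 (SE 0.55) for H3c1, -2.31 (SE 0.52) for H3c6 and -1.87 (SE 0.38) for H3c4, with adjusted p of 0.441, 0.441 and 0.412. H4c11 differed by -2.25, H2bc12 by -1.74 and H2bc4 by -1.55. The H2A genes did not share this, with 9 of 13 higher and a median of 0.24. CD1 ISM1 replicate 3, the dim array, was the lowest of its group for all of the H3 and H4 genes just named. Without it H3c1 differed by -1.92 and H3c6 by -1.68, without the 3 dimmest arrays H3c1 differed by -1.64, H4c11 by -1.40 and H2bc4 by -0.82, and without ISM1 replicate 1 H3c1 passed (-3.18, adjusted p = 0.0461, from 0.0461 to 1.00 over its alternatives).

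In B6, 30 of 39 members were lower in ISM1, with a median of -0.27. Single arrays moved it, to -0.03 (17 higher, 22 lower) without B6 ISM1 replicate 1 and to -0.53 without B6 in vivo replicate 3. None was called, as with 0% of all genes. One (H4c11, -1.07) had an unadjusted p under 0.05, against 1.19%, and 4 lay below in vivo without overlap, against 8.28%. Among these were H2bc11, at 6.83, 6.14 and 5.80 in vivo and 5.23, 5.15 and 5.61 in ISM1 (-0.93), and H2ac18 (-0.95).

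**Figure D4:**
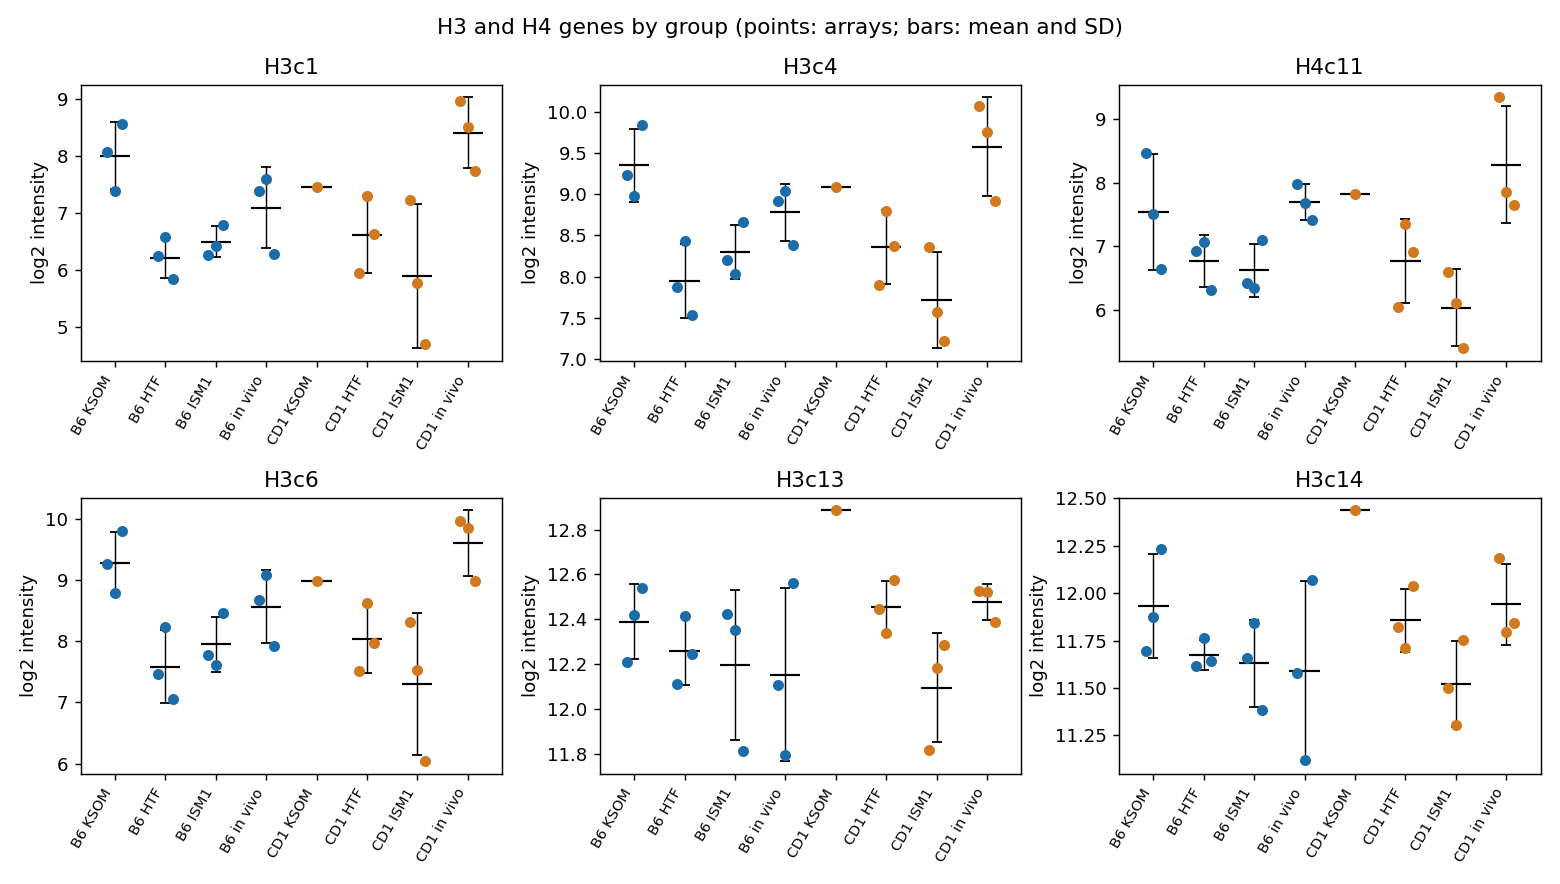
Log2 intensity of 5 H3 genes and H4c11 on every array of the 8 groups (points, blue B6 and orange CD1), with bars for the mean and SD, each panel on its own scale. H3c1, H3c4, H3c6 and H4c11 have lower group means in HTF and ISM1 than in vivo in CD1, while the panels of H3c13 and H3c14 span little more than 1 unit.

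In B6 KSOM more members were higher than lower. Of 39 members 30 were higher than in vivo, with a median of 0.37, against 0.01 over all genes. None was called, as with 0% of all genes, and 5 had an unadjusted p under 0.05 (H2ac8, H2bc4, H2bc7 and H2bc9 higher, H2ac18 lower), against 5.92%. H2bc9 was detected on 3 arrays, 2 of them in B6 KSOM, so its place among the 5 is partly set by how it was chosen. Arrays did not overlap for 2, against 8.19%. The median was 0.49 for H2A genes, 0.81 for H2B genes and 0.44 for H3 genes. The H4 genes went the other way, with 5 of 6 lower and a median of -0.21. H2ac8 measured 7.10, 6.12 and 9.83 in KSOM and 5.84, 6.08 and 5.24 in vivo, without overlap, and differed by 1.96 (SE 0.65, adjusted p = 0.618). That rested on replicate 3, without which it was 0.89. H2bc12 measured 8.38, 7.64 and 9.97 in KSOM and 8.13, 8.15 and 7.02 in vivo, and the same array was the high one. Without KSOM replicate 1, where H2ac11 stood at 12.19 and H2ac21 at 11.99, the members' median was 0.10. These comparisons all share the in vivo arrays of their strain.

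The single CD1 KSOM array allows no test. Against the mean of CD1 in vivo, 20 of 39 members were higher, with a median of 0.03, the same as over all genes. It lay above all 3 in vivo arrays for 13 members and below them for 6, which compares with 1853 and 1593 of 9345 genes. H2ac11 was 3.56 and H2ac21 3.47 higher, and H2ac18 differed by -2.15.

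Between strains, averaged over HTF, ISM1 and in vivo, 21 of 39 members were higher in CD1 and 18 lower. The split includes H2ac6 and H2bc8, detected in CD1 alone, and H2bc15 and H4c14, detected in B6 alone. Their signs are partly set by how they were chosen. None was called, against 0.235% of all genes, 6 had an unadjusted p under 0.05, against 10.1%, and none was free of overlap throughout, against 0.353%. The 13 H2A genes had a median of -0.84, an average over growth conditions that were not alike. Their mean level per array in vivo was 8.482, 8.068 and 6.995 in CD1, below 9.06, 9.503 and 8.665 in B6. In HTF it was 8.679, 9.742 and 9.105 in CD1 and 9.318, 9.486 and 8.088 in B6, so the strains overlapped. They also overlapped in ISM1, at 7.591, 9.028 and 6.895 in CD1 and 7.746, 9.23 and 9.196 in B6. One of the 6, H2bc8, was kept through CD1 arrays alone and was singled out after its values were seen, so its values are given as a description without a test. In B6 it stayed between 4.59 and 5.19 on all 12 arrays and was detected on none. In CD1 it measured 6.38, 5.96 and 6.66 in HTF, 5.59, 7.66 and 5.55 in vivo, 5.34, 4.57 and 5.22 in ISM1 and 4.85 in KSOM. With each array scaled to its median the split turned to 13 higher and 26 lower, as the median of all genes moved to -0.28.

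Arrays of 1 group differed in their histone genes together. With each group's mean removed, the correlation of 2 H2A genes over 21 arrays had a median of 0.52 (78 pairs), against 0.15 over all 741 pairs of members and 0.00 over all pairs of tested genes. It was 0.26 among H2B genes, 0.22 among H3 genes and 0.11 among H4 genes. The closest pairs were H2ac10 with H2ac22 (0.997), H2ac10 with H2ac24 (0.993) and H2ac12 with H2ac15 (0.982). Among H3 genes the closest was H3c1 with H3c6 (0.953), and across types H2ac6 with H2bc8 (0.927). These were detected on 3 and 5 arrays, and both stood highest on CD1 in vivo replicate 2 (8.25 and 7.66). H3c13 and H3c14 went against H1f2, down to -0.75. Points of a pair share the array and its brightness. Many of these genes differ in few bases, so a probe may read more than 1 of them, and the share of that in the correlations was not tested. H2ac10, for example, ran from 9.89 to 13.74 over the arrays and H2ac20 from 10.99 to 15.12, both lowest on CD1 in vivo replicate 3.

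**Figure D5:**
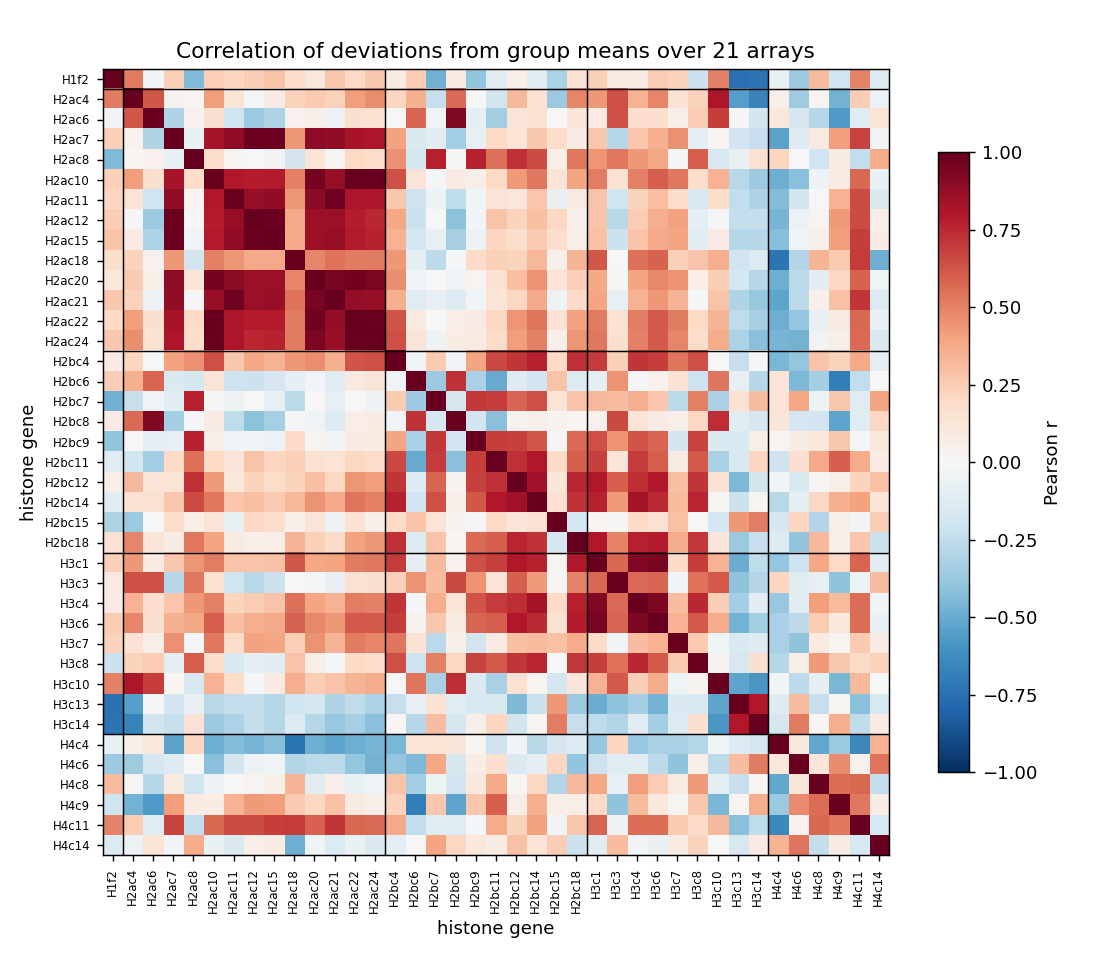
Pearson correlation between each pair of the 39 histone genes over the 21 arrays of replicated groups, after each group's mean was removed. The 9 H2A genes from H2ac7 to H2ac24 without H2ac8 and H2ac18 form the strongest block, and H3c13 and H3c14 correlate below 0 with H1f2.

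Genes that make, carry or accompany these histones did not pass the test in any comparison, where 0% to 0.235% of all genes did. Of the genes for histone mRNA transcription and processing (18 tested of 29 listed) 0 were called, and their median in HTF against in vivo was -0.15. E2f1, an activator of S phase genes, stood at 0.29 and Hinfp, a regulator of H4 genes, at -0.18. Among S phase and replication genes (29 of 35) the median was 0.22, with the sliding clamp Pcna at -0.27 (SE 0.29). Replacement histones are also made outside S phase, mainly from polyadenylated mRNA. They had a median of 0.21 (8 of 22), with H2az1 at -0.07, H3f3a at 0.53 and H3f3b at 0.38. Histone chaperones (16 of 22) had a median of 0.11. In ISM1 against in vivo the 4 medians were -0.07, 0.05, 0.11 and 0.10. At an unadjusted p under 0.05, limma found 1 gene of the 4 lists for HTF, against 8.25% of all genes. It was Hjurp, the chaperone of the centromeric H3 variant, at 0.39. For ISM1 limma found 0 genes of the lists, against 3.29%. For CD1 against B6 it found 6 of 29 S phase genes (list median -0.13), 2 of 18 processing genes and 1 of 16 chaperones, against 10.1%. For B6 KSOM against in vivo the numbers were 1, 1 and 2, against 5.92%. No replacement histone was among them. Slbp, Npat, Casp8ap2, Lsm11, H1f0 and H1f8 were not analysed here.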

How the data were processed

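Labelled RNA of 22 samples was hybridised to Illumina MouseRef bead arrays. The authors deposited a table of summarised intensity and a detection p-value per probe and array, with no log, background correction or scaling seen in the values, and a second table of log2 values. The submitters' processing notes name BeadStudio 3.2, lumi and RMA. The deposited log2 columns share 1 distribution, as quantile normalization gives.

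From the deposited intensity and detection p-value columns, neqc of limma 3.58.1 in R 4.3.3 corrected the background, added an offset of 16, quantile-normalized and took log2. A probe stayed in the fit when 3 or more arrays had its detection p below 0.05 (12992 of 25697), and 1 gene was represented by its brightest kept probe (9345 genes). Gene names came from the platform annotation, in which 23978 probes have 1 symbol. lmFit and eBayes were fitted to the 8 group means (14 residual and 3.51 prior degrees of freedom), two-sided, with Benjamini-Hochberg adjustment over all genes and a threshold of 0.05. Where a group was undetected on all arrays, its fold is a bound from the lowest detected signal. The fit was tested on simulated data. Precision is limited by how many arrays each group has.

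The text names members called, the 2 brightest and the most variable of each type, the 3 largest separated differences each way per comparison, and 4 genes named earlier (21 in all). Others it names were chosen after their values were seen. The members and all lists were chosen with earlier results of these data known. Background, scaling, filter, probe, weights, prior, replicate block, brightness and left-out arrays were varied.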

Additional observations from a re-analysis of the deposited data

How the results depend on the processing

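Among the 9 comparisons and 2 strain differences of effects, 26 recomputed counts of called histone genes moved by over 1.5 times and 337 did not, and 1252 of the single-gene values kept their side of the threshold, with 25 gained, 9 lost and 0 reversed. For HTF against in vivo (1 of the histone genes called) the count was 2 with median scaling, 4 with array weights, 0 with only the compared arrays (17 at an unadjusted p under 0.05), 2 with brightness as a covariate and 2 without the 3 dimmest arrays, an alternative chosen after seeing the data. With array weights HTF in B6 gave 11, ISM1 in B6 gave 12 and ISM1 against HTF gave 5, where 1159, 1329 and 315 of all 9345 genes were called (165 for HTF against in vivo). CD1 against B6 gave 1 (H2bc8) with median scaling, with array weights and without the 3 dimmest arrays, though its selection through CD1 arrays sets that difference in part. The cause was not tested. Leaving out 1 array at a time gave 0 to 2 histone genes called for HTF against in vivo, 0 to 1 for HTF in CD1 (H2ac18 without CD1 in vivo replicate 3), 0 to 1 for ISM1 in CD1 (H3c1 without CD1 ISM1 replicate 1), and 0 to 1 for CD1 against B6 (H2bc8 without any 1 CD1 in vivo array). H2bc4 joined H2ac18 for HTF without B6 KSOM replicate 3, CD1 ISM1 replicate 3 or CD1 in vivo replicate 1, and replaced it under an RMA-style background (adjusted p = 0.0484, with 0.0505 for H2ac18).

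Same-numbered arrays had r from -0.72 to 0.45, over 0.1 in 11 of 27 pairs. In CD1 HTF with CD1 ISM1 all 3 pairs were over 0.1 (0.18, 0.177 and 0.213), but in B6 1 of 3 was not (0.017), so the numbers were not taken to pair the arrays. A replicate block left 1 of the histone genes called for HTF against in vivo and 1 for ISM1 against HTF. No member had 2 kept probes, so the alternative with a gene's other kept probe was not run. Signal over background limits the 9 members detected on fewer than 10 arrays, whose levels are only bounds in the groups where they were not detected. These members were detected in 2 (H2bc8, H2bc9 and H2bc15) to 6 (H3c7) of the 8 groups.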
